A study of Homo sapiens with 16 samples.

Results

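The genes described here are 10 genes of the cellular response to low oxygen, grouped around the mitophagy receptor gene BNIP3. They are BNIP3, BNIP3L, ADM, VEGFA, EGLN1, EGLN3, ANKRD37, HIF1A, EPAS1 and NDRG1. A member was taken as the probe set of the deposited table whose gene symbols include it, and 9 of the 10 had exactly 1 such probe set among 18495. No probe set named for ANKRD37 was found, so it was not analysed here. The probe set of EGLN1 also carries the pseudogene SCAND2P, so its values belong to that shared probe set and not to EGLN1 alone. The samples come from the established human embryonic stem cell line H9 and were measured on Human Exon 1.0 ST arrays. Undifferentiated cells (day 0, n = 4) grew on mouse feeder cells or Matrigel in feeder-conditioned medium with serum replacement and basic FGF. The other cells had spent 1 day (n = 3), 3 days (n = 3) or 5 days (n = 4) in RPMI with activin A at 100 ng/ml, a ligand of the nodal pathway that directs stem cells to endoderm, while fetal bovine serum was raised in steps. Activin, medium and serum changed together, so their parts in any difference cannot be told apart, and the labels name no oxygen level for any sample.

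When oxygen is plentiful, the prolyl hydroxylases encoded by EGLN1 (PHD2) and EGLN3 (PHD3) mark the HIF alpha subunits, encoded by HIF1A and EPAS1 (HIF-2 alpha), for destruction by the VHL ubiquitin ligase. When oxygen falls, the subunits escape hydroxylation, pair with ARNT and bind short hypoxia response elements in target genes. That control acts mostly on protein stability, which an RNA measurement does not show. Among the targets, BNIP3 and BNIP3L (NIX) encode outer mitochondrial membrane receptors for mitophagy, the removal of mitochondria by autophagy. ADM encodes the vasodilator peptide adrenomedullin, VEGFA the main growth factor of blood vessels, and NDRG1 a cytoplasmic protein of stress and differentiation. EGLN3 and, in many cells, EGLN1 are themselves HIF targets, which closes a feedback loop.

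Median intensity per array was 245.1 to 246.3 units, and precision is limited by how many arrays there are. The labels call the replicates biological without naming separate cultures, so p-values measure the spread between these samples. Replicate 2 of day 3 and replicate 2 of day 5 correlated least with their own groups, at a median of 0.858 or below, against 0.901 to 0.962 in the rest. Day 3 replicate 2 also went against its label in part: its 9 definitive endoderm markers summed to 4180 intensity units, against 38723.1 to 44943.4 in the other day 3 samples and 3255.3 to 7700.5 at day 0. Its 7 primitive streak markers summed to 2172, against 25178.7 to 25385.1 in the other day 3 samples and 1415.5 to 3021.3 at day 0. Its 6 stem cell markers summed to 25542.6, just above the 20603.1 to 24414.3 of the other day 3 samples and below the 34554.4 to 44350.1 at day 0. At day 5 the endoderm markers summed to 42526.2 to 56151.2 and the stem cell markers to 16043 to 25516.7. Calls of members and the list counts given at day 5 that change without day 3 replicate 2 are given both ways. The pair of technical arrays of the same sample differed by at most 0.298 log2 units for the 9 members, with a median of 0.11. In bulk RNA, fewer cells that express a gene and less of its RNA per cell cannot be told apart.

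The promoters of the 3 members that differed past the test in any comparison below are shown because hypoxia response elements are usually sought there. The sequences are RefSeq's (GRCh38.p14), from 250 bases before to 50 bases after the start of transcription, 5′ to 3′ on the gene's strand. Capitals mark matches to ACGTG or GCGTG, the core letters of the element, on either strand (CACGT or CACGC where the match is on the other strand). The BNIP3 promoter lies at chr10:131981874-131982173 on the minus strand, the ADM promoter at chr11:10304823-10305122 on the plus strand, and the EGLN3 promoter at chr14:33951025-33951324 on the minus strand.
BNIP3: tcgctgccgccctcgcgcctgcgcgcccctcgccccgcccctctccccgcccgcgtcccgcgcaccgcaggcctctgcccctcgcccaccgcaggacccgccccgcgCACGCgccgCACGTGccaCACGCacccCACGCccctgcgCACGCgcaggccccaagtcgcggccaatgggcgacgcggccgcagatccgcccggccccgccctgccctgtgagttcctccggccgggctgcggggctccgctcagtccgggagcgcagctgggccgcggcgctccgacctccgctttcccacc
ADM: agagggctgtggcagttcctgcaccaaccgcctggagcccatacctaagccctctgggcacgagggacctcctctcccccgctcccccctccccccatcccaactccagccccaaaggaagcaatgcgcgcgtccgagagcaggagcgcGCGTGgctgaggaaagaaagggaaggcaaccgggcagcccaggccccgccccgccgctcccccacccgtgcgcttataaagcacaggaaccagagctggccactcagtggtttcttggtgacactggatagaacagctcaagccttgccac
EGLN3: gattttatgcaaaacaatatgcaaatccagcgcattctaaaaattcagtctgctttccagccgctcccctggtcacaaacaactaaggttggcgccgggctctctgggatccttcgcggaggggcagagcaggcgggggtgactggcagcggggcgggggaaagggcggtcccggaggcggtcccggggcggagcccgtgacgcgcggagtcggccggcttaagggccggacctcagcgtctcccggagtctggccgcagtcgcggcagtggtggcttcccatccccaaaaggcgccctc

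The BNIP3 window held 6 matches between 143 and 104 bases before the start, 2 of which overlap in the palindrome CACGTG. Of the 35116 promoters in the table, 0.923% held at least 6 matches. The ADM window held 1 match, 101 bases before the start, and 48.4% of all promoters held at least 1. The EGLN3 window held none, which says only that these letters are not in this window. Of the 10 genes, 7 had a promoter in the table. The windows of EGLN1 and EPAS1 held 1 match each, that of ANKRD37 held 3, and HIF1A had a pair of listed start sites with 1 and 0 matches. A match is a description of the letters and not a site of binding.

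BNIP3 rose at day 5, and of the 9 measured members it was the only one past the test against undifferentiated cells. Levels here are log2 of the deposited intensity plus 1, and a difference of 1 is a factor of 2 on that scale. BNIP3 stood at 9.48, 9.73, 10.38 and 9.67 in the day 0 samples and at 9.86, 9.95 and 10.36 at day 1. After 3 days the values were 11.05, 10.33 and 11.74, and after 5 days 12.17, 11.83, 11.99 and 11.76. Every day 5 sample lay above every day 0 and day 1 sample, and the lowest at day 5 (11.76) was close to the highest at day 3 (11.74). The technical arrays behind that day 5 sample, replicate 4, stood at 11.61 and 11.91, on either side of that day 3 value. The low value at day 3 was that of replicate 2. The means ran in the order day 0, day 1, day 3, day 5, and day 0 overlapped day 1, as day 1 overlapped day 3.

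In limma over all probe sets, BNIP3 averaged 11.94 ± 0.18 at day 5 and 9.82 ± 0.39 at day 0 (SD, n = 4 each), a rise of 2.12 ± 0.30 (SE) or 4.35-fold, with a Benjamini-Hochberg adjusted p of 0.00129. The adjusted p stayed between 0.0002 and 0.00713 when any 1 of the 14 samples was left out. Against day 1 the rise at day 5 was 1.88 ± 0.32 (adjusted p 0.00757, and 0.0528 without day 1 replicate 1). At day 3 BNIP3 differed from day 0 by 1.23 ± 0.32 (adjusted p 0.208). Without day 3 replicate 2 it rose by 1.58 (adjusted p 0.013). At day 1 the difference from day 0 was 0.24, with a 95% interval of -0.46 to 0.94 (adjusted p 1).

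**Figure D1:**
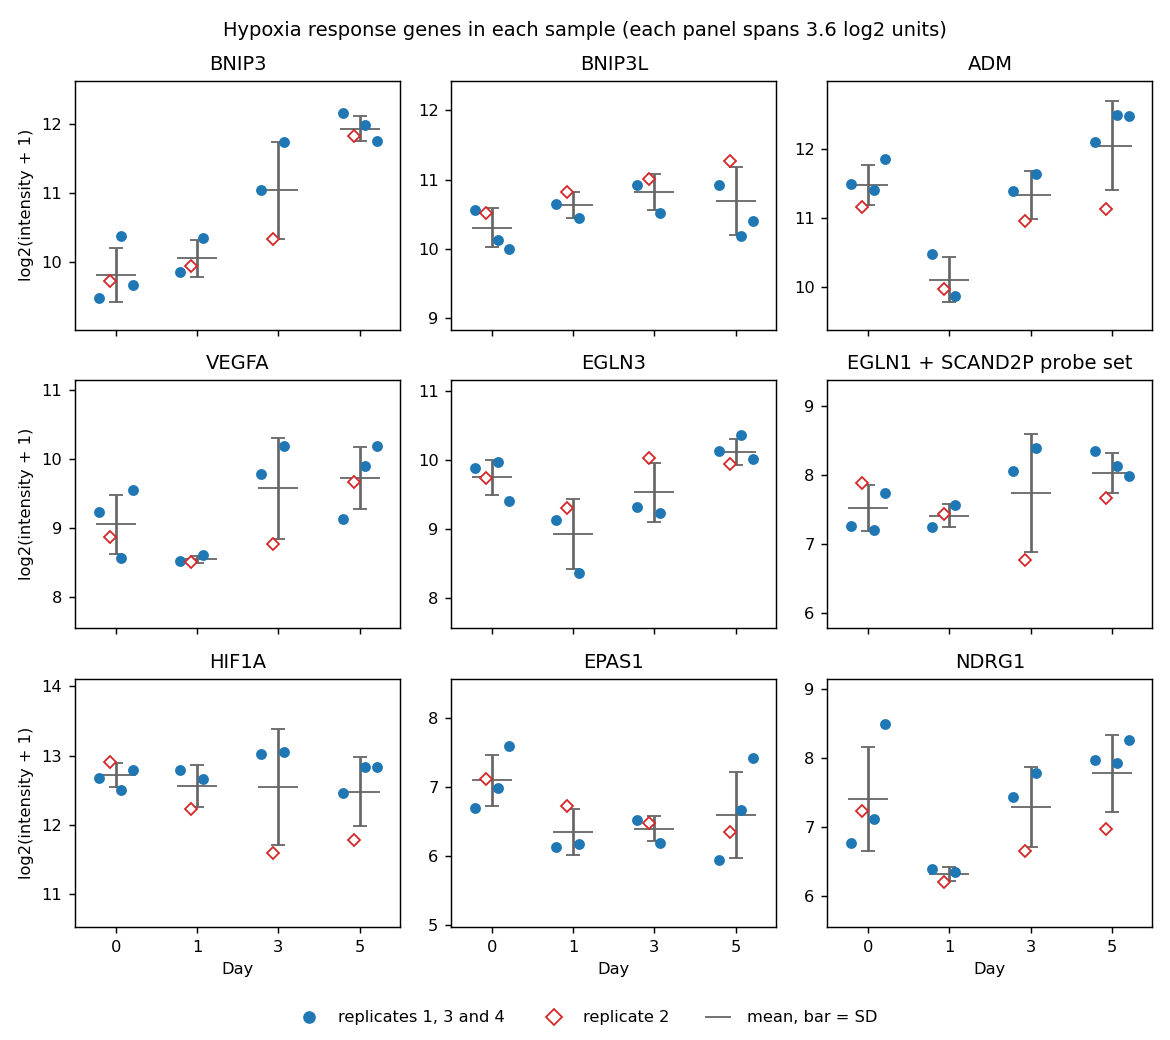
Each panel plots 1 member as log2(intensity + 1) against day, with a point per biological sample, open diamonds for replicate 2, and the mean with its SD as a grey bar. BNIP3 is highest in the 4 day 5 samples (11.76 to 12.17), whereas ADM and NDRG1 are lowest in the 3 day 1 samples.

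BNIP3L, the paralogue with the same role on mitochondria, did not pass the test in any comparison. It stood at 10.56, 10.52, 10.13 and 9.99 at day 0 and at 10.64, 10.82 and 10.45 at day 1. After 3 days the values were 10.92, 11.01 and 10.52, and after 5 days 10.92, 11.26, 10.19 and 10.40. The ranges of all days overlapped, and the day 5 samples held both a high value, in replicate 2, and a low one, in replicate 3. BNIP3L at day 5 differed from day 0 by 0.39, with a 95% interval of -0.18 to 0.96 (limma adjusted p 0.526).

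The difference between the paralogues was tested in each sample as log2 BNIP3 minus log2 BNIP3L, set to a mean of 0 at day 0, a test chosen after their values were seen. This quantity lay between 1.06 and 2.28 in the 4 day 5 samples and between -0.60 and 0.73 in the 4 day 0 samples. The groups did not overlap, and the change was 1.73 (two-sided exact permutation p 0.0286, the smallest that 70 regroupings allow). It was -0.10 at day 1 (exact p 0.857) and 0.71 at day 3 (exact p 0.286, where replicate 2 had -0.19 and was the lowest). Since the pair was chosen for its values, these p-values describe that difference and are no independent evidence of it.

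**Figure D2:**
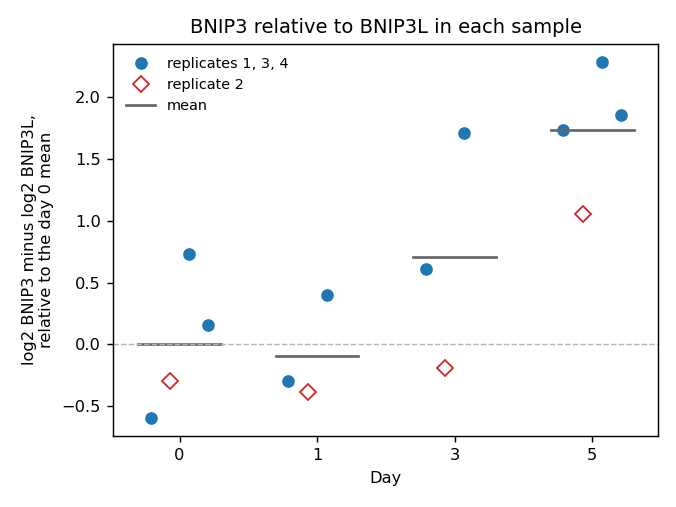
The difference log2 BNIP3 minus log2 BNIP3L, relative to its day 0 mean, is plotted for each biological sample by day, with open diamonds for replicate 2 and a grey line for the mean. The 4 day 5 samples lie between 1.06 and 2.28, above all day 0 samples (-0.60 to 0.73).

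The secreted factors ADM and VEGFA were lowest on average at day 1. ADM stood at 11.50, 11.16, 11.40 and 11.86 at day 0 and at 10.48, 9.97 and 9.87 at day 1. After 3 days the values were 11.39, 10.96 and 11.64, and after 5 days 12.11, 11.13, 12.50 and 12.47. All 3 day 1 samples lay below all samples of the other days, and at days 3 and 5 the lowest value was that of replicate 2. ADM rose at day 5 relative to day 1 by 1.95 ± 0.34, or 3.85-fold (12.05 ± 0.64 at day 5, n = 4, and 10.11 ± 0.32 at day 1, n = 3, limma adjusted p 0.00806). That p reached 0.0511 in a fit of only those 2 groups and 0.0453 at most with 1 sample left out.

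At day 1 ADM differed from day 0 by -1.37 ± 0.34, a level lower by a factor of 2.59, which did not pass over all probe sets (limma adjusted p 0.235). It passed with day 3 replicate 2 and day 5 replicate 2 both left out of the shared estimate of spread (adjusted p 0.0233). The difference from day 0 at day 5 was 0.57 ± 0.31 (adjusted p 0.406), and 0.88 (adjusted p 0.0295) without those 2 samples. The summed intensity of 6 trophoblast markers was also lower at day 1, at 496.7 to 687.9 against 1120.3 to 2293.5 at day 0. At day 1, 0 of the 6 passed limma and 2 had an unadjusted p under 0.05, where 0.00541% and 6.03% of all probe sets did. A day 1 mean under 100 units was found for 4 of the 6. The 8 fibroblast markers summed to 2789.4 to 5303.4 at day 1 and to 4796.3 to 8745.2 at day 0. For the 5 neuroectoderm markers the sums were 114.6 to 165.5 and 161.2 to 238.6. Both were lower at day 1 too, with ranges that overlap. A difference above 0 was found for 4 of the 8, 2 of the 5 and 1 of the 6 trophoblast markers. The part of such cells in the ADM difference was not tested.

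VEGFA was close to uniform at day 1, at 8.53, 8.51 and 8.60, against 9.24, 8.88, 8.56 and 9.55 at day 0. It stood at 9.78, 8.77 and 10.18 at day 3 and at 9.14, 9.67, 9.90 and 10.19 at day 5. Every day 5 sample lay above every day 1 sample, and day 3 replicate 2 again had the low value of its group. VEGFA at day 5 differed from day 1 by 1.18 ± 0.36 (limma adjusted p 0.108, and a rise of the same size at 0.0322 without day 3 replicate 2). It differed from day 0 by -0.51 at day 1, 0.52 at day 3 and 0.67 at day 5, none past the test (adjusted p 1, 0.776 and 0.342).

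Of the oxygen sensors, EGLN3 behaved like ADM at day 1, with 9.13, 9.32 and 8.36, against 9.89, 9.74, 9.98 and 9.41 at day 0. It stood at 9.33, 10.03 and 9.24 at day 3 and at 10.14, 9.94, 10.37 and 10.02 at day 5. The day 1 values lay below all those of day 0 and day 5, and here day 3 replicate 2 was the highest of its group. EGLN3 rose at day 5 relative to day 1 by 1.18 ± 0.29, or 2.27-fold (limma adjusted p 0.0406). The call was kept only when the sample left out was day 0 replicate 4 or day 3 replicate 2 or 3. Without any 1 of the other 11 samples the adjusted p was 0.0531 to 0.188, and in a fit of the 2 groups alone 0.103. The day 1 difference from day 0 was -0.82 ± 0.29 (adjusted p 0.579).

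The probe set shared by EGLN1 and SCAND2P averaged 7.52 ± 0.34 at day 0 and 7.41 ± 0.16 at day 1, then 7.74 ± 0.86 after 3 days and 8.03 ± 0.29 after 5 days. Its day 5 samples (7.67 to 8.35) lay above its day 1 samples (7.24 to 7.57), but the difference of 0.62 ± 0.35 did not pass (limma adjusted p 0.482). The wide spread at day 3 came from replicate 2, at 6.77 against 8.05 and 8.39.

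The HIF alpha subunit genes did not pass the test in any comparison. HIF1A averaged 12.71 ± 0.17 at day 0 and 12.56 ± 0.30 at day 1, then 12.55 ± 0.84 after 3 days and 12.48 ± 0.50 after 5 days. Its lowest values were those of day 3 replicate 2 (11.58) and day 5 replicate 2 (11.77), and the other 12 samples lay between 12.22 and 13.05. The day 5 difference from day 0 was -0.24, with a 95% interval of -0.98 to 0.50 (limma adjusted p 0.796). EPAS1 stood at 6.70, 7.11, 6.98 and 7.59 at day 0 and lower on average afterwards, at 6.34 ± 0.33 at day 1, 6.39 ± 0.18 at day 3 and 6.59 ± 0.62 at day 5. Its 3 day 3 samples lay below all day 0 samples, a difference of -0.70 ± 0.34 (adjusted p 0.608), and its day 1 difference was -0.75 ± 0.34 (adjusted p 0.797). EPAS1 was low in all samples, at 60.6 to 191.2 intensity units.

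NDRG1, like ADM, was lowest at day 1. It stood at 6.77, 7.23, 7.11 and 8.49 at day 0 and at 6.39, 6.20 and 6.35 at day 1. Those day 1 values are low, at 72.5 to 82.8 intensity units, where array medians were 245.1 to 246.3. After 3 days the values were 7.42, 6.64 and 7.78, and after 5 days 7.96, 6.97, 7.92 and 8.26. Every day 1 sample lay below every other sample, and replicate 2 was the lowest at days 3 and 5. NDRG1 at day 5 differed from day 1 by 1.46 ± 0.42 (limma adjusted p 0.0866). Leaving out replicate 2 of day 3 made this a rise past the test (0.0491), as did leaving out replicate 4 of day 0 (0.0428) or replicate 2 of day 5 (0.044, with a rise of 1.73). At day 1 it differed from day 0 by -1.09 ± 0.42 (adjusted p 0.676).

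Set side by side, the members split by comparison. At day 5 against day 0, 1 of 9 members rose, where 2.56% of all probe sets rose, and 0 fell, where 2.89% of all did. BNIP3 was also the 1 member whose day 5 group lay entirely above day 0, which 6.07% of all probe sets did. The median difference of the 9 members was 0.39, against -0.02 over all probe sets, and only EPAS1 and HIF1A were below 0. At day 5 against day 1, 3 of 9 members rose (BNIP3, ADM and EGLN3), where 2% of all probe sets rose, and 0 fell, where 1.33% of all did. Without day 3 replicate 2 there were 5 of 9 (with VEGFA and NDRG1 added), where 3.54% of all probe sets rose. With any 1 sample left out the count ran from 1 to 5, where 170 to 1130 probe sets were called in either direction. A fit of only the 2 groups called 1 of 9, where 398 probe sets were called. In that comparison 6 of 9 members had a day 5 group entirely above day 1, against 7.08% of all probe sets, and the members' median difference was 1.18 against -0.06. The comparisons of day 5 with day 0 and with day 1 share the day 5 samples, and those with day 0 share the day 0 samples.

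At day 1 against day 0, 0 of 9 members passed limma, where 0.00541% of all probe sets did, and 4 had an unadjusted p under 0.05 (ADM, EGLN3, NDRG1 and EPAS1), as did 6.03% of all probe sets. The day 1 group lay entirely below day 0 for 3 of 9 members (ADM, EGLN3 and NDRG1), against 6.62% of all probe sets. BNIP3 and BNIP3L were the only members with a difference above 0, and the members' median was -0.51 against 0.025 over all probe sets. At day 3 against day 0, 0 of 9 passed, where 0.027% of all probe sets did, and 1 (BNIP3) had an unadjusted p under 0.05, as did 8.56% of all. Only EPAS1 of the 9 had a day 3 group entirely below day 0, which 6.55% of all probe sets had. Without day 3 replicate 2, 1 of 9 rose at day 3 (BNIP3), where 2.05% of all probe sets rose. The F test of any difference among days was passed by BNIP3 (adjusted p 0.00531) and ADM (0.0271), and by 3.73% of all probe sets. For the other 7 members its adjusted p was 0.127 or more.

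**Figure D3:**
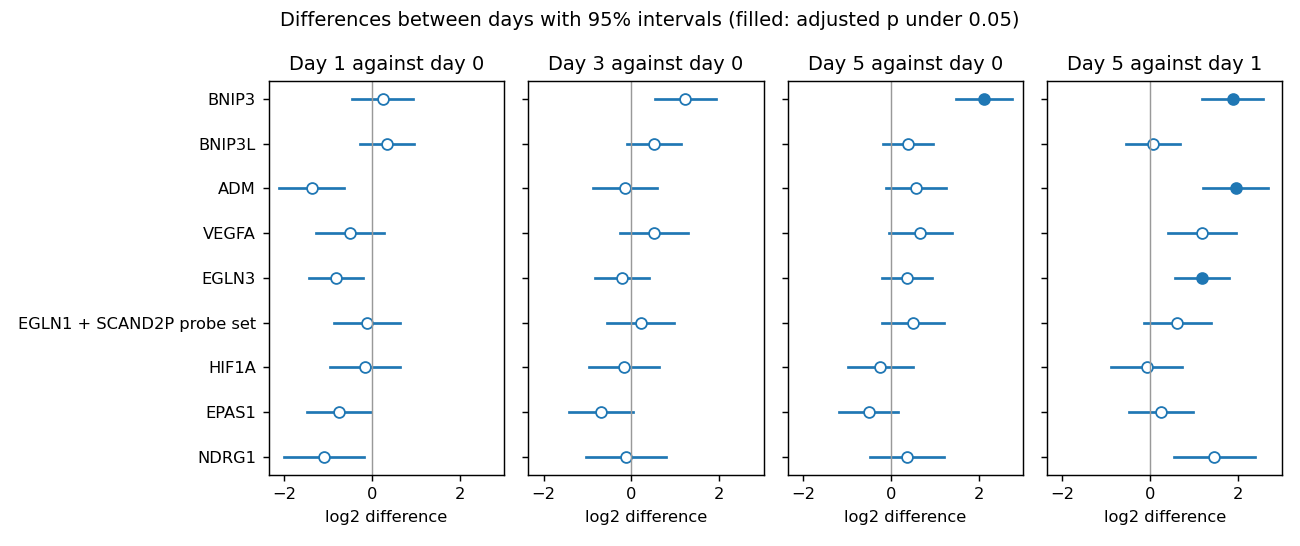
Each panel plots 1 comparison, with the log2 difference of every member as a point, its 95% interval from limma as a line, and filled points for an adjusted p under 0.05. BNIP3 is filled against both day 0 (2.12) and day 1 (1.88), while ADM (1.95) and EGLN3 (1.18) are filled only against day 1.

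Likeness across the 14 samples is given as correlations, which share the grouping by day and so carry no test. With ADM, Pearson's r was 0.889 for NDRG1 (Spearman's rho 0.899), 0.742 for VEGFA (0.732) and 0.712 for EGLN3 (0.618), but 0.555 for BNIP3 (0.415) and -0.318 for BNIP3L (-0.433). Among 14577 other probe sets with 1 symbol, those most like BNIP3 were DIO3 (r 0.975), which inactivates thyroid hormone, MXI1 (0.969), a repressor that opposes MYC, MANEA (0.969), a Golgi mannosidase, ST8SIA4 (0.965), a polysialyltransferase, and EPSTI1 (0.958). Those most like ADM were ATP1B1 (0.93), a subunit of the sodium pump, MYOF (0.911), a membrane repair protein, the cation channel gene TRPC6 (0.902), the actin-binding TAGLN2 (0.896) and the mitochondrial aldehyde dehydrogenase ALDH2 (0.894).

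Other HIF targets passed the test in both directions at day 5. Own probe sets were present for 54 of 59 such genes, of which 4 rose and 1 fell at day 5 against day 0, where 2.56% of all probe sets rose and 2.89% fell. With day 3 replicate 2 left out, 9 rose and 2 fell, where 4.07% of all rose and 8.73% were called in either direction. The median of the 54 was 0.09 against -0.02 over all probe sets. An unadjusted limma p under 0.05 was found for 16 of the 54, where 17.2% of all probe sets had one. Day 5 against day 1 gave 16 of the 54, where 14.5% of all probe sets had one. MXI1, at 9.59, 9.72, 9.75 and 9.34 in the day 5 samples and 7.69, 8.01, 8.02 and 7.92 at day 0, rose by 1.69 ± 0.25 (limma adjusted p 0.00158). CCNG2, a cyclin that slows the cell cycle, rose by 1.75 ± 0.26 (adjusted p 0.00155). The fall was that of ALDOC, a glycolytic aldolase, by 1.53 ± 0.25 (adjusted p 0.00363). None of these 3 calls was lost when any 1 of the 14 samples was left out.

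P4HA2, a prolyl hydroxylase of collagen, rose by 0.98 ± 0.22 at day 5 against day 0 (limma adjusted p 0.0202, and 0.0513 to 0.0669 with day 0 samples 1, 2 or 3 or day 5 samples 1 or 3 left out). PDK1, a kinase that keeps pyruvate from mitochondrial oxidation, rose by 1.51 ± 0.41 (adjusted p 0.0497), a call kept only without day 3 replicate 2 or day 5 replicate 4. Against day 1, 3 of the 54 rose and 1 fell, where 2% of all probe sets rose and 1.33% fell. Without day 3 replicate 2, 5 rose and 2 fell, where 3.54% of all rose and 6.11% were called in either direction. KDM4C, a histone demethylase, rose by 0.83 ± 0.20 against day 1 (adjusted p 0.0418, kept only without day 0 replicate 3 or day 3 replicate 2). ALDOC fell by 1.12 ± 0.27 against day 1 (0.0418), a call lost in 10 of the 14 fits with 1 sample left out (0.0504 to 0.136). MXI1 rose by 1.61 (0.00616, kept with any 1 sample left out) and P4HA2 by 1.14 (0.0197, and 0.0545 to 0.116 with day 1 samples 1 or 3 or day 5 samples 1 or 3 left out). At day 1 against day 0, 0 of 54 passed limma and 5 had an unadjusted p under 0.05, where 0.00541% and 6.03% of all probe sets did. Their median was -0.12 against 0.025 over all probe sets.

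The other genes of oxygen sensing and the partners of HIF had no call with all samples. Own probe sets were present for 15 of 19 such genes, and 0 passed limma in any of the 4 comparisons, where 0.00541% to 5.46% of all probe sets did. At day 5 against day 0, 2 of the 15 had an unadjusted p under 0.05, as did 17.2% of all probe sets. At day 5 against day 1, 2 of the 15 did, and 14.5% of all. At days 1 and 3 against day 0, 0 of the 15 did, and 6.03% and 8.56% of all. Without day 3 replicate 2, 1 of the 15 was called in each of the comparisons of day 3 with day 0, day 5 with day 0 and day 5 with day 1. In that setting 3.19%, 8.73% and 6.11% of all probe sets were called in either direction. CITED2, which competes with HIF for the coactivators CBP and p300, differed by 1.29 ± 0.44 at day 5 against day 0 (adjusted p 0.12) and rose at 0.0134 without day 3 replicate 2. HIF3A, which encodes an inhibitory alpha subunit, differed by -0.82 ± 0.46 (adjusted p 0.419).

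Own probe sets were present for 21 of 28 listed mitophagy genes. At day 5 against day 0, 2 of the 21 rose and 0 fell, against the 2.56% and 2.89% of all probe sets. With day 3 replicate 2 left out, 4 rose and 0 fell, where 4.07% of all rose. The median was 0.34 against -0.02 over all probe sets. OPTN, an autophagy receptor that links damaged mitochondria to the autophagosome, stood at 9.69, 9.58, 9.51 and 9.33 at day 5 and at 7.52, 7.78, 7.28 and 8.48 at day 0. It rose by 1.76 ± 0.42 (limma adjusted p 0.0263, and 0.0586 to 0.0864 with day 0 samples 1, 2 or 3 or day 5 samples 1, 2 or 3 left out). Against day 1 OPTN rose by 2.10 ± 0.45 (adjusted p 0.0233, and 0.0531 to 0.115 without any day 1 sample or day 5 replicates 1 or 3). MAP1LC3A, an LC3 protein of the autophagosome membrane, rose by 1.05 ± 0.28 (adjusted p 0.0457, kept only without day 3 replicate 2 or day 5 replicate 2).

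Among receptors for the secreted members, RAMP2, KDR and FLT1 fell at day 5. All 20 listed genes of VEGF, angiopoietin and adrenomedullin signalling had their own probe set, and at day 5 against day 0, 2 rose and 3 fell, against 2.56% and 2.89% of all probe sets. The counts were 3 and 3 without day 3 replicate 2, where 8.73% of all probe sets were called in either direction. The median with all samples was -0.18 against -0.02 over all probe sets. Against day 1, 2 rose and 0 fell, where 2% of all probe sets rose and 1.33% fell. Without day 3 replicate 2, 2 rose and 3 fell against day 1, where 6.11% of all were called in either direction. RAMP2, which turns the receptor CALCRL into an adrenomedullin receptor, stood at 6.94, 5.73, 6.59 and 6.63 at day 5 and at 8.64, 8.59, 8.99 and 8.56 at day 0. It fell by 2.22 ± 0.40 (limma adjusted p 0.00587), a call kept with any 1 sample left out. CALCRL itself differed by -0.26 ± 0.51 (adjusted p 0.86). Its means were low, at 5.77 at day 0 and 5.515 at day 5, so little can be read from that difference. The RAMP2 mean at day 5 was also low, at 6.47.

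The VEGF receptor genes KDR and FLT1 fell by 1.23 ± 0.29 (limma adjusted p 0.0239) and by 1.18 ± 0.31 (0.0395) at day 5 against day 0. KDR lost that call without any day 0 sample or day 5 replicates 1 or 2 (0.0504 to 0.0714), and FLT1 kept it only without day 3 replicates 2 or 3 or day 5 replicate 4. The coreceptor gene NRP1 rose by 1.61 ± 0.43 against day 0 (adjusted p 0.0474, kept only without any 1 of the day 3 samples or day 5 replicate 2). Against day 1 NRP1 rose by 2.25 ± 0.47 (0.0193, and 0.0539 to 0.0991 without any day 1 sample or day 5 replicates 3 or 4). ANGPT2, a ligand of the endothelial receptor TEK, rose by 3.03 ± 0.38 against day 0 (0.000775) and by 2.59 ± 0.41 against day 1 (0.00511), both kept with any 1 sample left out. The ANGPT2 means they are measured from were low, at 5.15 at day 0 and 5.59 at day 1. At day 5 against day 0, 1 of 8 fibroblast markers (LUM), 1 of 5 neuroectoderm markers (PAX6) and 2 of 6 trophoblast markers (HAND1 and GATA3) rose. Of all probe sets, 2.56% rose. Only 4 of the 8, 3 of the 5 and 3 of the 6 had a difference above 0. The part of such cells in the differences of the receptor and ligand genes was not tested. The 8 fibroblast markers summed to 3978 to 11596.9 at day 5 and to 4796.3 to 8745.2 at day 0, and 3 of them had a day 5 mean under 100 units. The 6 trophoblast markers summed to 588.6 to 1637.1 at day 5 and to 1120.3 to 2293.5 at day 0. The 5 neuroectoderm markers summed to 426 to 1105.5 at day 5 and to 161.2 to 238.6 at day 0. Of these 5, 4 had a day 5 mean under 100 units.

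The paralogues NDRG2, NDRG3 and NDRG4 and the regulators MYC, MYCN and SGK1 all had their own probe set, and of these 6 genes 1 rose and 1 fell at day 5 against day 0, against 2.56% and 2.89% of all probe sets. The counts were 1 and 2 without day 3 replicate 2, where 8.73% of all probe sets were called in either direction. The median with all samples was -0.61 against -0.02 over all probe sets. NDRG4 rose by 1.59 ± 0.42 (limma adjusted p 0.0438, kept only without any 1 of the day 3 samples or day 5 replicate 2). MYCN, a repressor of NDRG1 in other cells, fell by 1.25 ± 0.30 (0.0258, and 0.0561 to 0.0843 with day 0 samples 1, 2 or 4 or day 5 samples 1 or 2 left out).

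**Figure D4:**
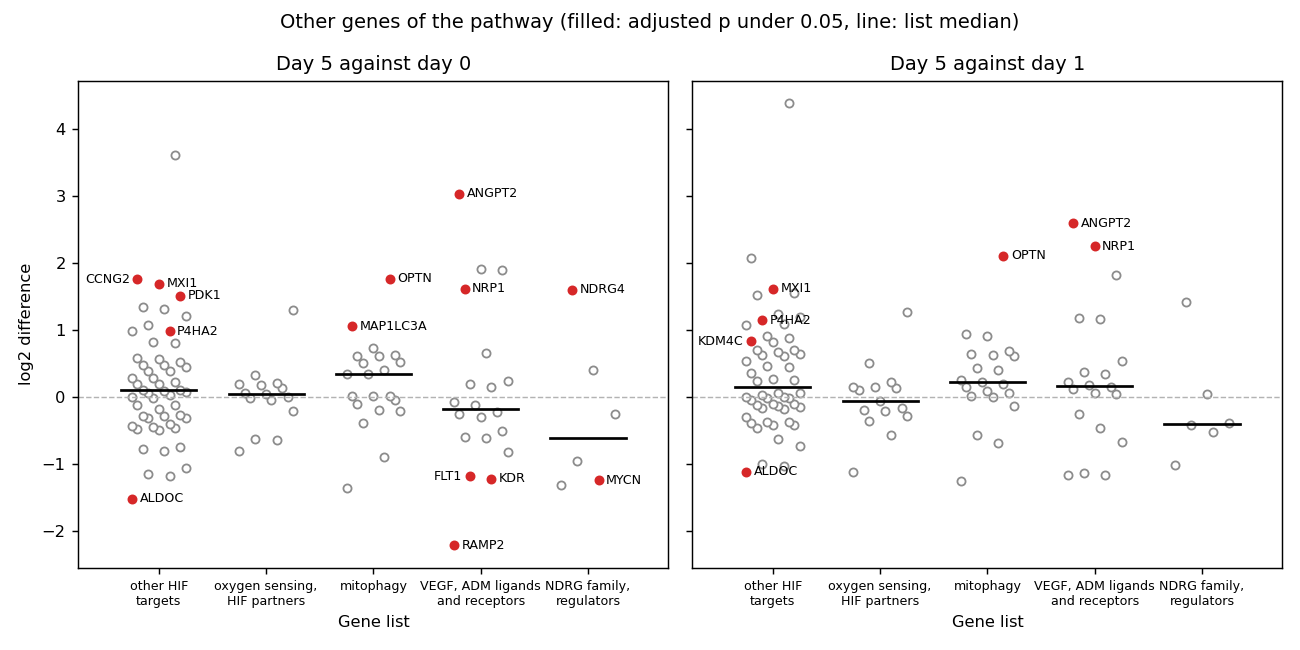
Each open or filled point is 1 gene of a list, as the log2 difference of day 5 against day 0 (left) or against day 1 (right), with filled and named points for an adjusted p under 0.05 and a black line for the list median. At day 5 against day 0, RAMP2, KDR and FLT1 lie below 0 while NRP1 and ANGPT2 lie above, and no gene of the oxygen sensing list is filled.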

How the data were processed

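Values were deposited by the authors as gene-level intensity on a linear scale, with 16 arrays as columns. The submitters' processing notes name the genome build hg18, and how probes were summarised and normalised is not given in the sources used here. Array medians were nearly equal. After adding 1 to each value, log2 was taken, and technical arrays were averaged, which left 14 samples. The 4 day groups entered one linear model without covariates (limma 3.58.1, R 4.3.3), with moderated variances, and p-values were adjusted by Benjamini-Hochberg over all 18495 probe sets at 0.05. No filter on low values was used, so all 9 members were tested. The 636 values below 0 were kept, and log2 after adding 1 spreads values near 0 widely. Of the probe sets 14579 carried 1 symbol, 2847 several and 1069 none. Apart from the probe set of EGLN1, only probe sets with 1 symbol were named.

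The members and the 5 pathway lists were chosen with earlier results of these data known, from textbook knowledge of the pathway. From each list the text names up to 6 genes past the test with the largest change, or the 2 largest differences at day 5 against day 0 where none passed, and the 5 genes most like BNIP3 and ADM. CALCRL, STC1, SLC2A1, TFRC, LOXL2, PLOD1, STC2, CAV1, GBE1 and, beside its list, the markers were named after their values were seen. Alternatives were a pseudocount of 16, the replicate number as a block, separate fits of each pair of groups, quantile normalization, dropping the dimmest 25% of probe sets, robust eBayes with a variance trend, all 16 arrays with a random sample block, and leaving out each sample, or day 3 and day 5 replicate 2 together. Each member had 1 probe set, so no other probe set could be tried. The limma code was tested on simulated data.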

Additional observations from a re-analysis of the deposited data

How the results depend on the processing

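Of 792 member values under other settings, 749 kept their direction and side of the threshold, 14 lost the call, 10 gained one and 19 changed sign, all in differences that passed no test. The rise of BNIP3 at day 5 against day 0 passed in all 14 fits with 1 sample left out and in the 8 other settings. Another probe set per member could not be tried, since each has 1. The labels do not say what samples with the same replicate number share. Correlations of the deviations of same-numbered samples from their group means ran from -0.284 to 0.513. Samples with different numbers were not compared, so these values do not settle whether the samples were paired. With the replicate block, calls numbered 0 (day 1) and 1 (day 3) against day 0, where 1 and 5 stood without it. At day 5 the 1009 and 616 calls against day 0 and day 1 moved by less than 1.5 times, and NDRG1 at day 3 became 0.146. Calls at day 1 against day 0 were 17 with a pseudocount of 16, 20 with only the 2 groups, 12 without dim probe sets, 12 with the variance trend and 14 with all 16 arrays. Calls at day 3 were 8, 0, 1 and 8 with the pseudocount, the 2 groups, the trend and all arrays. With only the 2 groups, day 5 against day 1 had 398 calls and 1 member. Without replicate 2 of days 3 and 5 together, calls were 122, 1057 and 1835 at days 1, 3 and 5 against day 0 and 1503 at day 5 against day 1, with 1, 1, 2 and 5 members. In the same setting, differences at day 3 were 0.037 for ADM, 0.318 for HIF1A and 0.203 for NDRG1, and at day 5 against day 1 -0.135 for BNIP3L and 0.151 for HIF1A. With 1 sample left out, calls ranged over 0 to 46, 0 to 590, 549 to 1614 and, at day 5 against day 1, 170 to 1130, each highest without day 3 replicate 2, and members over 0 to 1 at day 3 and 1 to 5 at day 5 against day 1. Member differences that changed sign then ranged, at day 1, from -0.217 to 0.009 (EGLN1) and -0.275 to 0.011 (HIF1A). At day 3 they ranged from -0.304 to 0.037 (ADM), -0.113 to 0.698 (EGLN1), -0.415 to 0.318 (HIF1A) and -0.365 to 0.247 (NDRG1), and at day 5 against day 1 from -0.135 to 0.222 (BNIP3L), -0.25 to 0.151 (HIF1A) and -0.025 to 0.465 (EPAS1). The cause of these changes was not tested beyond the samples named.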

Other observations

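The time courses of some HIF targets are given here. PDK1 was already high at day 1, at 11.77, 12.34 and 11.58, against 9.72, 10.23, 10.52 and 9.51 at day 0, a difference of 1.90 ± 0.44 that did not pass limma (adjusted p 0.189). The day 1 group of PDK1 lay entirely above day 0. So did those of TFRC and of CCNG2, the latter with a difference of 1.12 ± 0.28 (limma adjusted p 0.236). Of all probe sets, 4.86% did. The day 1 groups of ADM, EGLN3 and NDRG1 lay entirely below day 0. Among the other HIF targets, those of LOXL2, PLOD1, STC2, CAV1, GBE1 and SLC2A1 did too. Of all probe sets, 6.62% lay entirely below. These genes were chosen after their values were seen. PDK1 at day 5 ranged from 10.36 in replicate 4 to 12.07 in replicate 2.

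STC1, a secreted glycoprotein hormone, stood at 12.13, 11.67, 13.08 and 13.27 at day 5, at 7.81, 6.80 and 9.85 at day 1 and at 8.92, 8.91, 9.60 and 8.28 at day 0. It differed at day 5 from day 0 by 3.61 ± 1.05 (limma adjusted p 0.0675, and a rise at 0.00194 without day 3 replicate 2, which stood at 6.44 against 11.70 and 12.27). The glucose transporter gene SLC2A1 differed from day 0 by -1.07 at day 1, -0.90 at day 3 and -1.19 at day 5. No difference passed the test (limma adjusted p 0.899, 0.721 and 0.235). Its day 1 and day 3 groups lay entirely below day 0, as did those of 6.62% and 6.55% of all probe sets.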
